A study of Mus musculus with 20 samples.

Results

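The interaction of Phf6 genotype with fasting was measured in sorted mouse AgRP neurons as the fasting response of conditional knockout (cKO) cells minus the fasting response of wild-type (WT) cells, gene by gene. It was tested for every gene with enough reads, which was 13237 of the 23129 genes in the count table. The libraries formed 4 groups of 5. Phf6 cKO mice carried a floxed Phf6 allele on their single X chromosome (Phf6 flox/y), Cre recombinase driven by the Agrp gene (AgRP-Cre/+) and the Cre-dependent red reporter tdTomato (Ai9/+). WT mice were littermates with AgRP-Cre/+ and Ai9/+ but without the floxed allele, so Cre and reporter were common to all groups. In each genotype, fasted mice lost their food at 5 pm on the day before collection and kept water, and fed mice did not. All mice were C57BL/6 and 25 to 30 days old. Each library came from 1000 tdTomato-positive cells sorted from a hypothalamic tissue punch after papain digestion, and although tissue was taken per mouse, the labels do not tie libraries to mice. P-values therefore measure the spread between these libraries, which may be partly technical.

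AgRP neurons of the arcuate nucleus sense energy deficit through ghrelin, leptin, insulin and glucocorticoid signals and drive food seeking by releasing agouti-related peptide, neuropeptide Y and GABA. Fasting raises their firing, and with it the transcription of neuropeptide genes and of activity-dependent genes, among them immediate early genes such as Fos, which encode short-lived transcription factors. PHF6 is a chromatin-binding protein with PHD-like zinc fingers that is reported to associate with the PAF1 elongation complex, the NuRD complex and the RNA polymerase I factor UBF. The study's title names activity-dependent transcription and hunger, and the interaction asks for which genes the fasting response depended on Phf6.

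The promoter sequences of 4 genes that lead the results are shown first. Fos and Cdkn1a had the smallest p-values for an interaction below 0 and Kpna2 and Creld2 for one above 0, among genes with a promoter used here and no more than 10% of exon bases shared with another gene. Each covers 250 bases before and 50 after the RefSeq start site on GRCm38.p6, read in the direction of transcription, at chr12:85473640-85473939 (plus strand) for Fos, chr17:29090729-29091028 (plus) for Cdkn1a, chr11:106999476-106999775 (minus) for Kpna2 and chr15:88819396-88819695 (plus) for Creld2. Capitals mark matches on either strand to TGACG, the short site bound by CREB and ATF proteins, and to TATAAA, the TATA box.
Fos: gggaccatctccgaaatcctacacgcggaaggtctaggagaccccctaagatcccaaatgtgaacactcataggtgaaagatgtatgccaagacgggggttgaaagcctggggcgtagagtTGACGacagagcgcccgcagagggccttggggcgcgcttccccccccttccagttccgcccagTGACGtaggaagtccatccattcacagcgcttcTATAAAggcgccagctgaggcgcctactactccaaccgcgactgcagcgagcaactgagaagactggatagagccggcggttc
Cdkn1a: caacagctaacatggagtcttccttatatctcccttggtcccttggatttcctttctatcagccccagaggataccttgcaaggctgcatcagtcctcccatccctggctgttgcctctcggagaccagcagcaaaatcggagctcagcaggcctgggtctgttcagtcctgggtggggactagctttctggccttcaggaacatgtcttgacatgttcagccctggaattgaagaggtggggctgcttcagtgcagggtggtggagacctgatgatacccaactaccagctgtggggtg
Kpna2: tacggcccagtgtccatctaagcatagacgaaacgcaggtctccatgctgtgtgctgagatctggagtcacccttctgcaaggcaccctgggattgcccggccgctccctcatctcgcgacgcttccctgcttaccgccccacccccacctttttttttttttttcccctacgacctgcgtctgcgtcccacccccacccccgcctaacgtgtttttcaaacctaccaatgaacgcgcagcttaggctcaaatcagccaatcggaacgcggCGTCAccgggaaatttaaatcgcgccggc
Creld2: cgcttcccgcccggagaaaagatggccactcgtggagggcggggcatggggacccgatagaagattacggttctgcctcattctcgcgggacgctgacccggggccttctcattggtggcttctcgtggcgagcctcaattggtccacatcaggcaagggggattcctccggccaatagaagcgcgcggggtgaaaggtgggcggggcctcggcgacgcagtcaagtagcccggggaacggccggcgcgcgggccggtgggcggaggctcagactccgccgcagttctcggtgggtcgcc
The Fos promoter held TGACG at positions -129 and -66 and TATAAA at -33 relative to the start site, and the Kpna2 window held 1 TGACG on the opposite strand at position 21. The Cdkn1a and Creld2 windows held none of the 7 motifs searched, which says only that these letters are not in these windows.

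Depth and cell identity bear on all that follows. Total counts were 8542250 to 9282818 in fasted cKO, 10604977 to 13573524 in fed cKO, 8494499 to 10000278 in fasted WT and 11500753 to 13060922 in fed WT libraries, so fasted libraries were shallower in both genotypes. Levels are CPM, counts scaled to a common library total, on library sizes scaled by the trimmed mean of M values (TMM). The 8 AgRP neuron markers summed to 50800 to 69200 CPM in fasted cKO, 26700 to 31300 in fed cKO, 59500 to 84800 in fasted WT and 20700 to 22800 in fed WT, mostly from Npy. Markers of other cells had lower sums, and some differed between groups. The 11 microglia and macrophage markers summed to 25.1 to 42.6 CPM over all libraries, the 9 tanycyte and ependyma markers to 32 to 59.3 CPM and the 10 astrocyte markers to 187 to 295 CPM. The 5 dopamine neuron markers, led by Dlk1, summed to 545 to 651 CPM. The 4 Pomc neuron markers, led by Cartpt, summed to 450 to 1100 CPM in fasted cKO and 321 to 427 in fed cKO, against 386 to 479 in fasted WT and 332 to 442 in fed WT. The 10 markers of other hypothalamic neurons, led by Sst, summed to 500 to 1060 CPM in fasted cKO and 138 to 366 in fed cKO, against 363 to 846 in fasted WT and 293 to 505 in fed WT. The 8 oligodendrocyte markers summed to 49.5 to 65.5 CPM in fasted cKO and 82.6 to 106 in fed cKO, against 49.2 to 73.6 in fasted WT and 90.6 to 105 in fed WT. The part of these cells in the results was not tested. Fasted WT replicates 1 and 2 stood apart. The pituitary hormone subunit Cga had 96.3 and 77.2 CPM there, at most 0.108 CPM in fasted WT replicates 3 to 5, and at most 3.88 CPM in any other library, while Gh and Prl were at 0 in all 20. Fasted cKO replicates 3 to 5 had 194, 441 and 337 CPM of Pomc, the melanocortin precursor of neighbouring neurons, against 35.5 and 41.1 CPM in replicates 1 and 2. In fasted WT, Pomc had 40.0, 47.9, 89.1, 136 and 69.4 CPM. Ghrh, a peptide gene of other hypothalamic neurons, had 34.6, 5.11 and 37.2 CPM in fasted cKO replicates 3 to 5 and at most 0.632 CPM in any other library. The kisspeptin neuron markers Tac2 and Kiss1 had 17.9 and 2.95 CPM in fasted cKO replicate 4, and at most 0.116 and 0.387 CPM elsewhere. In pools of sorted cells, fewer cells of a type and less RNA per cell cannot be told apart. Fasted replicates 1 and 2 lay apart from replicates 3 to 5 in both genotypes. Deviations from the group mean, correlated across genes between a fasted cKO and a fasted WT library, had a median r of 0.0944 where both libraries were in 1 set and -0.088 across the sets, and the labels name no batch. Interaction counts over gene lists are also given without fasted WT replicates 1 and 2 where these change them. That fit keeps both sets in fasted cKO but only replicates 3 to 5 in fasted WT, so it does not balance the sets between genotypes.

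Phf6 (chrX:52912266-52956943, plus strand) was lower in cKO neurons in both states. It had 55.9, 53.6, 71.3, 62.7 and 62.4 CPM in the fasted cKO libraries and 76.3, 68.5, 68.6, 75.3 and 65 CPM in the fed cKO libraries, against 143, 119, 116, 129 and 135 CPM in fasted WT and 271, 264, 277, 292 and 278 CPM in fed WT. The 10 cKO libraries did not overlap the 10 WT libraries. Counts were 2.09-fold lower in cKO when fasted and 3.91-fold lower when fed, and which exons are floxed is not given in the sources used here. Fasting lowered Phf6 by a log2 fold change of -0.21 ± 0.07 in cKO and -1.11 ± 0.07 in WT, and the interaction was 0.90 ± 0.10 (adjusted p = 6.40e-07, edgeR's quasi-likelihood test, as for every adjusted p here).

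Of the 13237 tested genes, 1174 (8.87%) had an interaction above 0 and 1117 (8.44%) below 0 at an adjusted p under 0.05, and 195 and 279 of them differed 2-fold or more. Without fasted WT replicates 1 and 2 the counts were 1872 above and 1854 below of 13577 tested genes. Counts over gene lists are to be read beside the 8.87% above and 8.44% below, and those in that fit beside this general rise. With a term for the 2 sets of fasted replicates the counts were 1608 and 1598. An interaction above 0 means that the fasting log2 fold change was higher, that is, a larger rise or a smaller fall, in cKO than in WT. Fasting raised 3445 genes (26.0%) and lowered 3579 (27.0%) in cKO neurons, and raised 3920 (29.6%) and lowered 4138 (31.3%) in WT neurons. The fasting log2 fold changes had a standard deviation over genes of 0.698 in cKO and 0.935 in WT, and the median absolute fold change was 0.384 in cKO and 0.455 in WT on the log2 scale. Across the 13237 genes, which are not independent replicates, both fasting responses had a Pearson correlation of 0.752, and they share no library. When fasted, 1517 genes (11.5%) were higher and 1170 (8.84%) lower in cKO than in WT. When fed, 777 (5.87%) were higher and 504 (3.81%) lower in cKO. Without fed cKO replicate 2 the last count was 332, and without fasted WT replicates 1 and 2 the counts of lower genes were 2039 when fasted and 865 when fed.

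**Figure D1:**
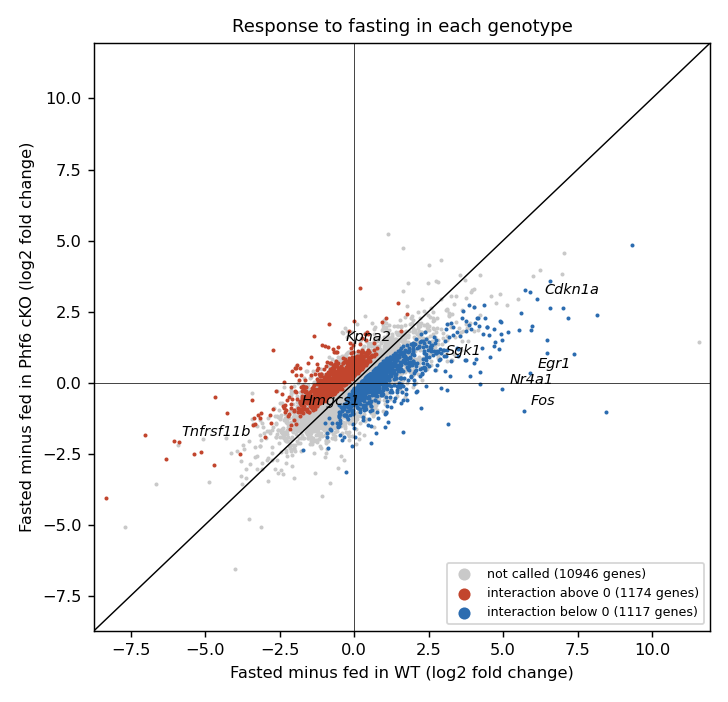
Log2 fold change with fasting in cKO (vertical) against WT (horizontal) for the 13237 tested genes, with the diagonal of equal response. The 1117 genes with an interaction below 0 (blue) lie under the diagonal, Fos farthest among the labelled genes, and the 1174 with an interaction above 0 (red) lie over it.

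The genes below 0 were mostly genes that fasting raised in WT neurons. Of the 1117, 444 (39.7%) rose in both genotypes, 397 (35.5%) were not called in cKO and rose in WT, 172 (15.4%) fell in cKO and were not called in WT, and 52 (4.66%) fell in cKO and rose in WT. The genes above 0 were mostly genes that fasting lowered in WT. Of the 1174, 440 (37.5%) were not called in cKO and fell in WT, 288 (24.5%) fell in both, 251 (21.4%) rose in cKO and were not called in WT, and 101 (8.6%) rose in cKO and fell in WT. These shares describe what the interaction selected and test nothing further.

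Genotype differences were also described in each feeding state. The interaction equals the fasted minus the fed genotype difference. Genes selected by its sign therefore tend to differ in opposite directions in the 2 states, and the values below test nothing further. Among the 279 genes at least 2-fold below 0, the absolute genotype difference was larger in fed mice for 171 (61.3%), against 494 of all 1117 genes below 0 (44.2%) and 41.2% of all tested genes. The 279 genes had median log2 differences, cKO minus WT, of -0.659 when fasted and 0.917 when fed. Among the 195 genes at least 2-fold above 0 it was larger in fasted mice for 149, and among all 1174 genes above 0 for 884. Over all 13237 tested genes it was larger in fasted mice for 7785. The 195 genes had medians of 0.869 when fasted and -0.423 when fed. Of all 1117 genes below 0, 495 were lower in cKO than in WT when fasted and not called when fed, 338 were not called when fasted and higher in cKO when fed, and 101 did both. Of the 1174 genes above 0, 721 were higher in fasted cKO and not called in the fed state, 169 were lower in fed cKO and not called in the fasted state, and 121 did both.

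**Figure D2:**
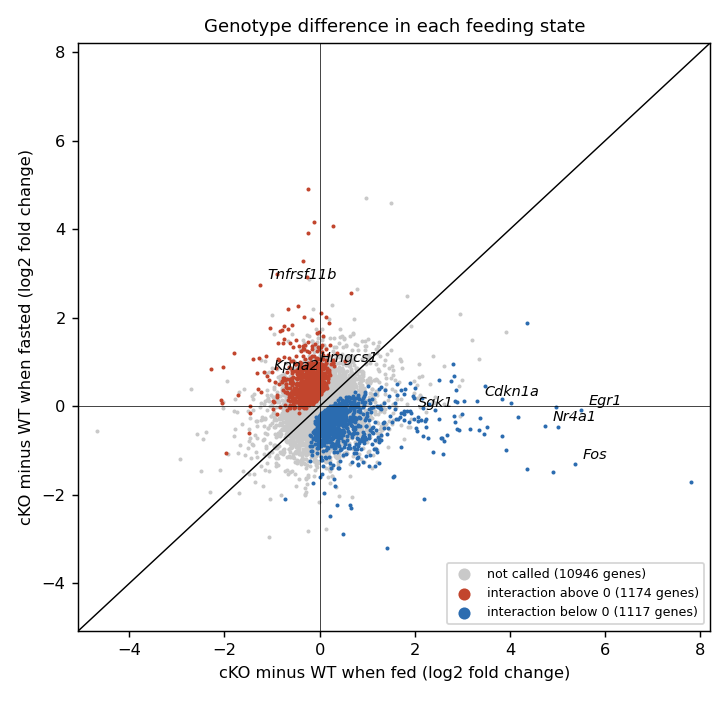
Log2 difference of cKO minus WT in fasted mice (vertical) against fed mice (horizontal) for the 13237 tested genes, coloured by interaction call. Fos, Egr1, Nr4a1 and Cdkn1a lie far to the right and close to or below 0 on the vertical axis, whereas Kpna2 lies to the left and above 0.

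The immediate early genes Fos and Egr1 had the largest interactions of the called genes described here, and Nts and Nr4a1 followed. Fos (chr12:85473890-85477273, plus strand), whose product is a subunit of AP-1, had 60.9, 41.1, 64.8, 68 and 69.6 CPM in fasted cKO and 113.8, 123.2, 111.3, 126 and 127.6 CPM in fed cKO libraries, against 144, 135, 144, 169 and 163 CPM in fasted WT and 3.45, 1.94, 2.36, 3.43 and 3.37 CPM in fed WT. Fasted and fed libraries did not overlap in either genotype, and they stood in opposite order. Fasting lowered Fos 1.98-fold in cKO and raised it 51.9-fold in WT, and the interaction was -6.68 ± 0.18 (log2 ± SE, adjusted p = 3.72e-21). Fasted cKO neurons had 2.48-fold less Fos than fasted WT, whereas fed cKO neurons had 41.4 times the level of fed WT. Its promoter, printed above, is the one of the 4 that holds both TGACG and TATAAA.

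Egr1 (chr18:34859823-34864984, plus strand), a zinc-finger factor, had 49.8, 43.1, 49, 46.2 and 37 CPM in fasted cKO and 31.2, 48.6, 33.8, 34.1 and 31.8 CPM in fed cKO, against 49.6, 60.1, 39.2, 46 and 45.4 CPM in fasted WT and 0.345, 0.718, 0.428, 1.25 and 1.29 CPM in fed WT. Only the fed WT libraries were low, and the other 3 groups overlapped. Its interaction was -5.59 ± 0.26 (adjusted p = 3.21e-15), with a fasting change on the log2 scale of 0.33 ± 0.14 in cKO, which narrowly missed the threshold (adjusted p = 0.050001), and 5.91 ± 0.21 in WT. The orphan nuclear receptor gene Nr4a1 (chr15:101254269-101274795, plus strand) had the same pattern, with 8.25, 10.2, 11.9, 15.8 and 13.7 CPM in fasted cKO and 18.6, 12.3, 14.4, 17.4 and 8.04 CPM in fed cKO, against 23.1, 15.5, 14.8, 14.9 and 13.9 CPM in fasted WT and 0.759, 0.933, 0.357, 0.234 and 0.241 CPM in fed WT. Its interaction was -5.20 ± 0.38 (adjusted p = 1.88e-10). In the fed WT libraries 3 counts equal 0.23 to 0.261 CPM before TMM scaling, so the sizes of the Nr4a1 and Egr1 values rest on few reads there.

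Not every member of these families behaved alike. Of 13 tested AP-1 genes, 5 (38.5%) lay below 0 and 1 (7.69%) above, against 8.44% below and 8.87% above over all tested genes. The median interaction of the list was -1.19, against -0.03 over all tested genes. Junb averaged 43.2 ± 4.58 CPM in fasted cKO and 54.2 ± 2.27 in fed cKO, against 43.2 ± 6.87 in fasted WT and 23.7 ± 2.73 in fed WT (SD, n = 5 each, as below), an interaction of -1.19 ± 0.14. Mafk, a small Maf partner of AP-1-like factors, had an interaction of -1.71 ± 0.26. Jun was the exception. It had 28.1, 22.3, 27, 28.7 and 29 CPM in fasted cKO and 48.4, 48.4, 47.8, 51.2 and 60.4 CPM in fed cKO, against 15.2, 15.5, 15.7, 14.9 and 14.6 CPM in fasted WT and 47.6, 49.8, 51.9, 45.5 and 48.8 CPM in fed WT. Fasting lowered Jun in both genotypes, more in WT, and fed levels overlapped, which gave an interaction of 0.76 ± 0.13 (adjusted p = 9.95e-05). Of 23 tested genes in the list of Egr, Nr4a and other immediate early factors, 9 lay below 0 and 1 above, with a median of -0.57. Btg2, an antiproliferative co-regulator, averaged 106 ± 8.67 CPM in fasted cKO and 71.2 ± 6.42 in fed cKO, against 93.4 ± 41.3 in fasted WT and 16.1 ± 1.19 in fed WT, an interaction of -1.96 ± 0.25, and its fasted WT libraries had 138, 139, 71.6, 61 and 57.7 CPM. Without fasted WT replicates 1 and 2 the counts below 0 were 9 AP-1 genes and 11 genes of the second list, with 1 above 0 in each.

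Activity-induced effectors moved the same way in part, with 9 of 36 tested genes below 0 and 3 above and a median of -0.53. Plk2, a kinase involved in synaptic scaling, averaged 55.2 ± 5.32 CPM in fasted cKO and 39.2 ± 7.83 in fed cKO, against 59.2 ± 10.8 in fasted WT and 11.4 ± 2.25 in fed WT. Its interaction was -1.88 ± 0.20 (adjusted p = 2.05e-07). Trib1, a pseudokinase, and Gem, a small GTPase that restrains calcium channels, had interactions of -1.99 ± 0.24 and -1.35 ± 0.17. Vgf, a neuropeptide precursor, rose with fasting in both genotypes, at 392 ± 44.4 CPM in fasted cKO and 114 ± 8.21 in fed cKO, against 373 ± 23.5 in fasted WT and 71.6 ± 8.04 in fed WT, and its interaction was -0.60 ± 0.11. The fasted Vgf ranges of both genotypes overlapped and the fed ranges did not. The members above 0 were Sst, Rasgrp1 and Baiap2, and 6 members lay above 0 without fasted WT replicates 1 and 2.

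Feedback regulators of MAP kinase signalling gave 3 of 16 tested genes (18.8%) below 0 and none above, against 8.44% and 8.87% over all tested genes. Without fasted WT replicates 1 and 2, where calls over all genes also rose, 5 lay below. The 3 were Dusp1, Dusp10 and Spry4. The phosphatase gene Dusp1 had 17.9, 10.2, 21.8, 17.9 and 14.9 CPM in fasted cKO and 51.8, 44.3, 47.3, 43.4 and 46.3 CPM in fed cKO, against 21.7, 23.5, 34.5, 27 and 31 CPM in fasted WT and 23.3, 15.4, 19.3, 21.9 and 18.8 CPM in fed WT. Fasting lowered it 2.81-fold in cKO and raised it 1.4-fold in WT, although the WT ranges overlapped, an interaction of -1.97 ± 0.21 (adjusted p = 1.89e-07). Dusp10 had an interaction of -0.92 ± 0.20. Spry4 rose in both genotypes, with an interaction of -1.39 ± 0.35, but as a plain difference in CPM its rise was larger in cKO, 20.1 CPM fasted and 3.21 CPM fed, than in WT, 14 CPM fasted and 0.836 CPM fed.

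**Figure D3:**
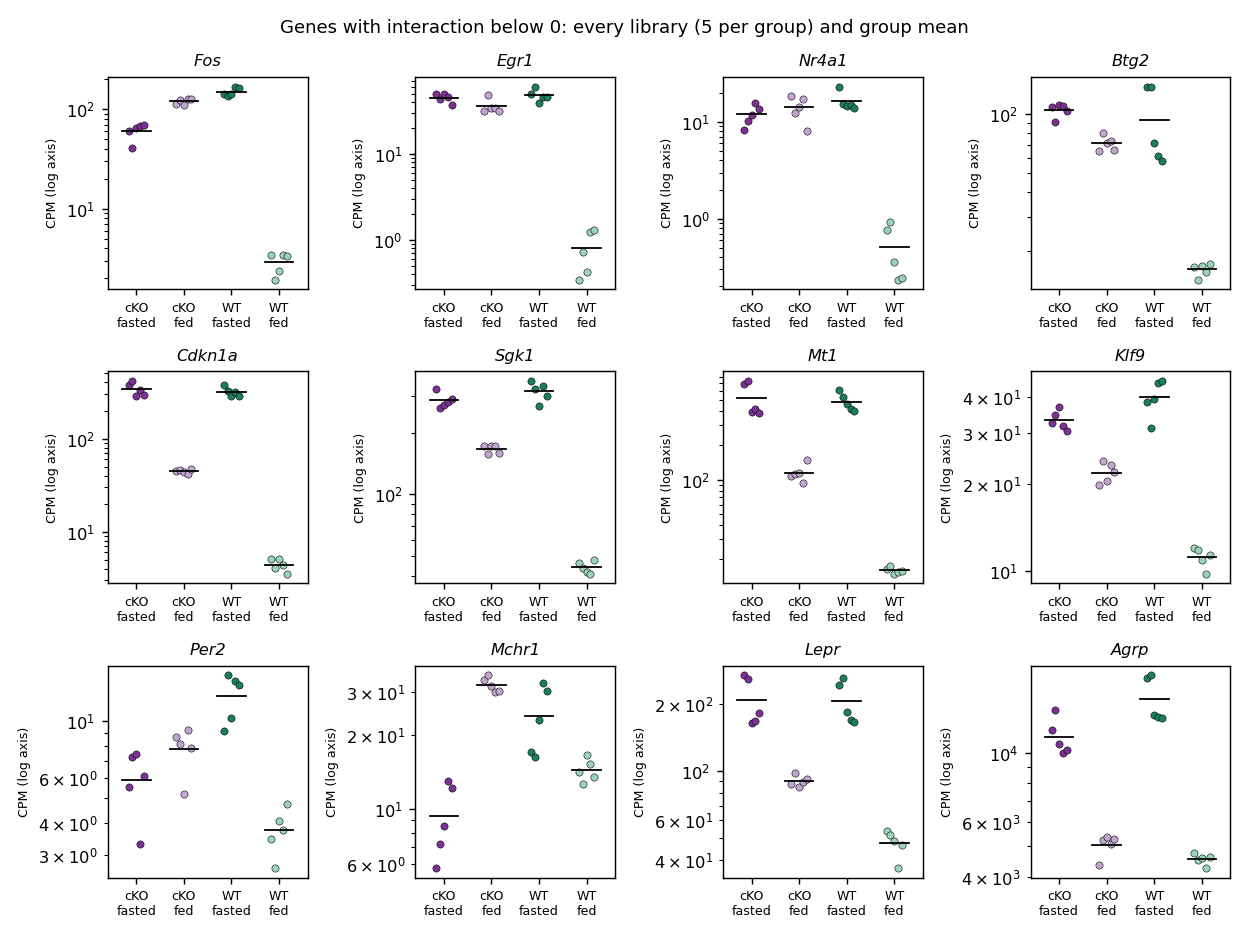
CPM (log axis) of 12 genes with an interaction below 0 in every library, with the mean of 5 libraries per group as a bar. For Fos, Egr1 and Nr4a1 the fed WT libraries are low while the other 3 groups are high, and for Cdkn1a, Sgk1, Mt1 and Lepr the fasted groups overlap and fed cKO lies between them and fed WT.

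Glucocorticoid-responsive genes had the highest share below 0 among the lists with at least 10 tested genes. Of 23 tested members, 15 (65.2%) lay below 0 and none above, with a median of -1.24. Their median log2 difference, cKO minus WT, was -0.26 when fasted and 0.96 when fed. Without fasted WT replicates 1 and 2 the counts were 15 below and 1 above 0. The list holds genes that other signals also induce, among them Per1 and Dusp1. These 2 genes and Cdkn1a, Mt1, Mt2, Klf9, Ddit4 and Nr3c1 stand in other lists as well, as do Klf15, Nr3c2, Pik3r1, Pdk4 and Nedd9. The counts of those lists are therefore not independent of this one. Sgk1 (chr10:21882184-21999903, plus strand), a kinase that regulates ion transport, had 328, 263, 274, 281 and 290.4 CPM in fasted cKO and 172, 157, 172, 172 and 159 CPM in fed cKO, against 357, 325, 269.6, 337 and 301 CPM in fasted WT and 46.5, 44.1, 41.8, 41.1 and 48 CPM in fed WT. Fasted levels overlapped, and the fed cKO libraries lay 3.76-fold above fed WT, an interaction of -2.06 ± 0.10 (adjusted p = 6.74e-15). Klf9, a transcription factor induced by corticosteroids, averaged 33.2 ± 2.57 CPM in fasted cKO and 21.9 ± 1.76 in fed cKO, against 39.9 ± 5.69 in fasted WT and 11.1 ± 0.884 in fed WT, an interaction of -1.24 ± 0.15. Nr3c1, which encodes the glucocorticoid receptor, had an interaction of -0.45 ± 0.09 (adjusted p = 5.18e-04) and averaged 217 ± 5.61 CPM in fasted cKO and 200.2 ± 9.42 in fed cKO, against 244 ± 25.5 in fasted WT and 164 ± 7.18 in fed WT. Ddit4, an inhibitor of mTOR complex 1, had -1.97 ± 0.46 at averages of 1.56 CPM in fasted cKO and 3.49 CPM in fasted WT.

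Cdkn1a (chr17:29090976-29100727, plus strand) encodes the cyclin-dependent kinase inhibitor p21, which neurons also induce under stress. It had 373, 415, 289, 333 and 296 CPM in fasted cKO and 44.9, 45.5, 43.9, 41.5 and 46.7 CPM in fed cKO, against 372, 322, 284, 313 and 289.5 CPM in fasted WT and 5.11, 4.09, 5.14, 4.36 and 3.54 CPM in fed WT. Fasting raised it in both genotypes to overlapping levels, 7.66-fold in cKO and 70.6-fold in WT. Fed cKO was 9.95-fold above fed WT, and the interaction was -3.20 ± 0.15 (adjusted p = 2.28e-15). Of 21 tested genes in the list of p21, cyclins and Gadd45, 7 (33.3%) lay below 0 and 3 (14.3%) above, against 8.44% and 8.87% over all tested genes. Without fasted WT replicates 1 and 2 the counts were 7 and 4. Sesn1, a stress-induced sestrin, had an interaction of -0.88 ± 0.16.

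Metallothionein genes, which encode small metal-binding proteins and are induced by zinc and glucocorticoids, had the same shape. Mt1 had 691, 731, 391, 413 and 385 CPM in fasted cKO and 107, 112, 115, 94.2 and 148 CPM in fed cKO, against 604, 533, 464, 417 and 396 CPM in fasted WT and 16.6, 17.4, 14.9, 15.6 and 15.7 CPM in fed WT. The fasted ranges overlapped, replicates 1 and 2 were the highest in both fasted groups, and the interaction was -2.73 ± 0.23 (adjusted p = 2.04e-09). Mt2 had -3.15 ± 0.34, but 73.5% of its exon bases lie opposite Gm45774, and these counts cannot tell both strands apart. The wider list of zinc-handling genes had 4 of 18 tested genes (22.2%) below 0 and 1 (5.56%) above, against 8.44% and 8.87% over all tested genes. Without fasted WT replicates 1 and 2 the counts were 5 and 3.

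Circadian clock genes had 11 of 24 tested members below 0 and 1 above, with a median of -0.56, and 13 below and 1 above without fasted WT replicates 1 and 2. Per2, a repressor of the core clock, had 5.5, 7.21, 7.42, 3.29 and 6.09 CPM in fasted cKO and 8.64, 8.16, 5.19, 9.2 and 7.84 CPM in fed cKO, against 9.12, 15.1, 10.3, 14.4 and 13.9 CPM in fasted WT and 3.45, 2.66, 4.07, 3.74 and 4.74 CPM in fed WT. Genotypes did not overlap in either state and lay in opposite order, with cKO below WT when fasted and above it when fed, an interaction of -2.15 ± 0.30 (adjusted p = 1.23e-05). Per1 averaged 15.2 ± 1.87 CPM in fasted cKO and 13.5 ± 1.84 in fed cKO, against 19.3 ± 2.22 in fasted WT and 6.01 ± 1.26 in fed WT. Its interaction was -1.51 ± 0.21. The clock repressor Cry2 had -1.15 ± 0.17 and the clock-associated repressor Ciart -1.62 ± 0.26. Fasting lowered Ciart in cKO (6.03 ± 1.36 CPM fasted, 15 ± 3.83 fed), whereas in WT it had 10.9 ± 1.11 CPM fasted and 8.85 ± 1.82 CPM fed, which did not pass the test. The labels give no hour of collection, so whether clock time moved with any group was not tested.

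The neuropeptides that define these cells rose in both genotypes, and less in cKO. Agrp had 11890, 13740, 10730, 9976 and 10210 CPM in fasted cKO and 4369, 5242, 5347, 5100 and 5272 CPM in fed cKO, against 17470, 17830, 13250, 13110 and 13000 CPM in fasted WT and 4750, 4516, 4607, 4259 and 4637 CPM in fed WT. Fasting raised Agrp 2.23-fold in cKO and 3.28-fold in WT, an interaction of -0.55 ± 0.12 (adjusted p = 0.0019). Fed levels overlapped between genotypes and did not pass the test (adjusted p = 0.288), and 11.3% of Agrp exon bases lie opposite Ctcf. Npy had 49700, 54360, 43140, 39790 and 39660 CPM in fasted cKO and 21490, 25220, 24020, 22510 and 24130 CPM in fed cKO, against 66350, 65250, 46250, 46770 and 45350 CPM in fasted WT and 16580, 16740, 16980, 15640 and 17390 CPM in fed WT. It rose 1.93-fold in cKO and 3.24-fold in WT, and its fed level was higher in cKO, with an interaction of -0.75 ± 0.13 (adjusted p = 1.94e-04). In both fasted groups replicates 1 and 2 held the highest Agrp and Npy values. Within the list of AgRP neuron identity genes, 5 of 17 tested (29.4%) lay below 0 and 3 (17.6%) above, against 8.44% and 8.87% over all tested genes. Without fasted WT replicates 1 and 2 the counts were 6 and 5.

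Receptors for feeding hormones had 9 of 28 tested members below 0 and 2 above, with a median of -0.28. The count below 0 was 4 in the fit with fasted replicates 1 and 2 alone, and 9 lay below and 4 above without fasted WT replicates 1 and 2. Lepr, the leptin receptor gene, had 270.3, 259, 164, 168 and 183 CPM in fasted cKO and 87.7, 98.4, 84.8, 89.5 and 92.4 CPM in fed cKO, against 245, 262, 185, 171 and 167 CPM in fasted WT and 53.6, 51.5, 48.3, 36.6 and 46.4 CPM in fed WT. Fasted levels overlapped and fed cKO lay 1.91-fold above fed WT, an interaction of -0.91 ± 0.19 (adjusted p = 0.00114). Ghsr, the ghrelin receptor gene, averaged 144 ± 30.9 CPM in fasted cKO and 70.8 ± 5.29 in fed cKO, against 134 ± 15.8 in fasted WT and 45.7 ± 4.12 in fed WT, an interaction of -0.53 ± 0.15 that did not pass the test with fasted replicates 1 and 2 alone. Mchr1, a receptor for melanin-concentrating hormone, had 5.75, 7.21, 8.58, 13.1 and 12.2 CPM in fasted cKO and 33.7, 35.2, 31.7, 30.2 and 30.4 CPM in fed cKO, against 17.1, 16.4, 23.2, 32.8 and 30.2 CPM in fasted WT and 14.2, 12.6, 16.6, 15.3 and 13.6 CPM in fed WT. Fasting lowered Mchr1 in cKO without overlap and raised it in WT with overlap, fasted replicates 1 and 2 were the lowest of their groups, and the interaction was -2.51 ± 0.26 (adjusted p = 1.36e-07). Npy2r, an inhibitory autoreceptor for neuropeptide Y, lay on the other side, at 127 ± 11.6 CPM in fasted cKO and 391 ± 8.49 in fed cKO, against 95.8 ± 16 in fasted WT and 431 ± 11 in fed WT. Fasting lowered it in both genotypes, more in WT (0.55 ± 0.11, adjusted p = 9.65e-04).

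Granins and prohormone-processing genes had 10 of 23 tested members below 0 and 1 above, with a median of -0.28, or 14 below and 2 above without fasted WT replicates 1 and 2. Pcsk2, a prohormone convertase, averaged 69.6 ± 9.37 CPM in fasted cKO and 53.9 ± 2.71 in fed cKO, against 88.1 ± 5.64 in fasted WT and 44.9 ± 2.41 in fed WT, an interaction of -0.60 ± 0.11. Scg3, a granin of secretory granules, had -0.34 ± 0.07, and Scg5, a chaperone of Pcsk2, -0.23 ± 0.06. All 3 rose with fasting in both genotypes. Among peptides of other hypothalamic neurons, 3 of 19 (15.8%) lay below 0 and 3 (15.8%) above, against 8.44% and 8.87% over all tested genes. Without fasted WT replicates 1 and 2 the counts were 4 and 3. Cartpt averaged 555 ± 105 CPM in fasted cKO and 304 ± 50.7 in fed cKO, against 349 ± 27.6 in fasted WT and 329.9 ± 34.1 in fed WT (0.79 ± 0.15). Sst averaged 719 ± 250 CPM in fasted cKO and 207 ± 89.1 in fed cKO, against 507 ± 188 in fasted WT and 373 ± 83.7 in fed WT (1.35 ± 0.34). Cartpt is also made by Pomc neurons, and Pomc itself was high in fasted cKO replicates 3 to 5, as was Ghrh, both given above. The part of these cells in the result was not tested. Penk had 2.93 ± 0.88, but it rested on fed WT replicate 4 with 39.2 CPM, without which the adjusted p was 0.159, and 14.3% of its exon bases lie opposite A830012C17Rik. Nts, the neurotensin gene, spread widely, with 65.3, 136, 64.4, 43.8 and 65.3 CPM in fasted cKO and 23, 47.3, 4.62, 23.4 and 84.6 CPM in fed cKO, against 135, 237, 56.2, 35 and 54 CPM in fasted WT and 0.552, 1.15, 0.642, 2.26 and 1.21 CPM in fed WT, an interaction of -5.46 ± 0.86 (adjusted p = 6.07e-05).

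Several signalling genes also lay below 0. Phactr3, a regulator of protein phosphatase 1 and actin, averaged 287 ± 22.1 CPM in fasted cKO and 133 ± 7.66 in fed cKO, against 290.4 ± 44.2 in fasted WT and 48.2 ± 3.54 in fed WT (-1.48 ± 0.11, adjusted p = 4.52e-10). Ptk2b, a calcium-regulated tyrosine kinase, averaged 13.8 ± 4.91 CPM in fasted cKO and 5.61 ± 2.54 in fed cKO, against 28.3 ± 1.5 in fasted WT and 1.08 ± 0.488 in fed WT (-3.41 ± 0.38, adjusted p = 6.40e-07). Both genes were induced by fasting in each genotype from a higher fed level in cKO. Nfkbiz, a nuclear IkappaB protein, had -2.54 ± 0.24, the chemokine gene Ccl17 -1.84 ± 0.17, the small GTPase gene Rhoj -3.46 ± 0.65 and the arginine and serine rich gene Rsrp1 -0.97 ± 0.09. Rhoj had 0 to 0.857 CPM in fed WT, so the size of its value rests on few reads there. Its fed ranges overlapped between genotypes, as did its fasted and fed ranges in cKO. Cd68 is usually a macrophage marker. It had 17, 24.9, 18.5, 14.6 and 17.9 CPM in fasted cKO and 6.37, 11.1, 5.82, 3.49 and 7.7 CPM in fed cKO, against 38.3, 36.3, 23.9, 21.7 and 33.2 CPM in fasted WT and 0.828, 1.87, 0.857, 1.09 and 1.13 CPM in fed WT, an interaction of -3.30 ± 0.35 (adjusted p = 2.44e-07). Of the 11 microglia and macrophage markers, between 3 and 4 had no count in any library of a group and 1 was tested, and their sum had medians of 32.4 CPM in fasted cKO and 36.5 in fed cKO, against 34.9 in fasted WT and 28 in fed WT. Txnip, a thioredoxin-binding protein that responds to glucose, had -3.40 ± 0.49 at levels between 0.161 and 12.5 CPM, and 19.4% of its exon bases lie opposite Gm15441.

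Growth and nutrient genes were mixed. The insulin, FoxO and mTOR list had 7 of 39 tested genes (17.9%) below 0 and 3 (7.69%) above, against 8.44% and 8.87% over all tested genes. Without fasted WT replicates 1 and 2 it had 9 below and 4 above. Tsc1, which restrains mTOR complex 1, averaged 31.2 ± 3.83 CPM in fasted cKO and 34 ± 1.62 in fed cKO, against 58.4 ± 10.1 in fasted WT and 33.4 ± 2.48 in fed WT. Its cKO fasting change was -0.12 ± 0.10 (adjusted p = 0.328) and its WT change 0.81 ± 0.10, an interaction of -0.93 ± 0.14 (adjusted p = 4.94e-05). Klf and Sp factors had 6 of 18 below 0 and 1 above. Klf6 had -0.57 ± 0.11, which did not pass the test with fasted replicates 1 and 2 alone, and Klf7 -1.03 ± 0.21, the second with 39.4% of its exon bases opposite Gm26649. Long noncoding RNAs of neurons had 6 of 22 below 0 and 1 above, or 6 and 2 without fasted WT replicates 1 and 2. Among the 6 were Malat1 (-0.49 ± 0.12) and Neat1 (-1.65 ± 0.45), both of which reside in the nucleus. Slc6a6, the taurine transporter gene, had -0.96 ± 0.12, within a list of transporters with 8 of 41 below 0 and 2 above, or 9 and 1 without fasted WT replicates 1 and 2.

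Of 81 tested cytosolic ribosomal protein genes, 79 rose with fasting in cKO and 80 in WT, with median log2 fold changes of 0.71 in cKO and 0.88 in WT. Of their interactions, 19 (23.5%) lay below 0 and none above, with a median of -0.17. The counts were 15 below and 1 above without fasted WT replicates 1 and 2, and 31 below and none above with upper-quartile scaling. Rpl10 averaged 933 ± 71.3 CPM in fasted cKO and 499.6 ± 24.3 in fed cKO, against 1107 ± 71.6 in fasted WT and 481 ± 13.4 in fed WT (-0.30 ± 0.08, adjusted p = 0.00682). Many of these genes have processed pseudogenes that can share reads. Respiratory complex I genes had 2 of 49 (4.08%) below 0 and 3 (6.12%) above, against 8.44% and 8.87% over all tested genes. Without fasted WT replicates 1 and 2 they had 5 below and 3 above. Complexes II to V had 1 of 62 below and 4 above, or 8 and 7 without those replicates, and upper-quartile scaling gave 6 below and 3 above.

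The direction above 0 was led by Kpna2 (chr11:106988629-106999541, minus strand), which encodes importin alpha 1, an adaptor that carries proteins into the nucleus. It had 148, 129.8, 108, 98.2 and 112 CPM in fasted cKO and 46.2, 51.9, 51, 50.2 and 47.8 CPM in fed cKO, against 83.2, 79.4, 59.6, 69.4 and 77.5 CPM in fasted WT and 96.7, 119.6, 103, 105 and 111 CPM in fed WT. Fasting raised Kpna2 2.41-fold in cKO and lowered it 1.45-fold in WT, so cKO was higher than WT when fasted and lower when fed, with no overlap in either state. The interaction was 1.80 ± 0.13 (adjusted p = 1.98e-10). The annotation holds a pseudogene, Kpna2-ps, inside Med20, so reads of both genes may be shared, and Med20, a Mediator subunit gene with an interaction of 1.49 ± 0.13, is uncertain for this reason. In the list of nuclear import and export, 11 of 49 tested genes (22.4%) lay above 0 and 1 below, with a median of 0.17, and 19 above and 5 below without fasted WT replicates 1 and 2. The importin gene Kpna4 averaged 64.5 ± 4.57 CPM in fasted cKO and 53 ± 1.78 in fed cKO, against 56.4 ± 3.27 in fasted WT and 79.1 ± 3.74 in fed WT (0.77 ± 0.09). The nucleoporin gene Nup35 had 1.45 ± 0.20 and Cse1l, an exporter that returns importin alpha to the cytoplasm, 0.78 ± 0.13.

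Cytosolic chaperones had 21 of 44 tested genes (47.7%) above 0 and none below, with a median of 0.28. Their median fasting change was -0.03 in cKO and -0.35 in WT on the log2 scale. Without fasted WT replicates 1 and 2, 20 lay above 0 and 1 below, and with fasted replicates 1 and 2 alone 32 above and none below. Chordc1 (chr9:18292125-18317442, plus strand), a co-chaperone of HSP90, had 166, 163, 132, 127 and 139 CPM in fasted cKO and 165, 152, 156, 157 and 163 CPM in fed cKO, against 103, 91.3, 43.5, 59.4 and 63.1 CPM in fasted WT and 225, 228, 227, 243 and 247 CPM in fed WT. The cKO change with fasting of -0.12 ± 0.13 did not pass the test, whereas fasting lowered it 3.26-fold in WT, and the interaction was 1.58 ± 0.18 (adjusted p = 1.13e-06). Bag2, which regulates HSP70, averaged 37.8 ± 5.71 CPM in fasted cKO and 31.4 ± 0.814 in fed cKO, against 22 ± 2.23 in fasted WT and 41.7 ± 4.03 in fed WT (1.19 ± 0.14). Ahsa1, an activator of the HSP90 ATPase, had 0.65 ± 0.08, and Cct4, a subunit of the TRiC chaperonin, 0.64 ± 0.08.

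Endoplasmic reticulum folding genes had 10 of 44 tested (22.7%) above 0 and 2 below, or 13 and 4 without fasted WT replicates 1 and 2. Creld2 (chr15:88819646-88826683, plus strand), an endoplasmic reticulum protein induced by unfolded proteins, had 84.9, 102, 72.2, 75.9 and 84.2 CPM in fasted cKO and 44.5, 32.7, 37.9, 41.1 and 42.9 CPM in fed cKO, against 47, 43.5, 31.8, 35.9 and 31.7 CPM in fasted WT and 62.1, 55.2, 58.7, 49.7 and 55.4 CPM in fed WT. It rose 2.11-fold in cKO and fell 1.48-fold in WT, an interaction of 1.64 ± 0.15 (adjusted p = 2.33e-08). Sdf2l1, a cochaperone of the same compartment, had 0.72 ± 0.13, and Dnajc3, a cochaperone that also inhibits eIF2alpha kinases, 0.46 ± 0.08. Crebrf, which promotes decay of CREB3, was 1 of the 2 below 0, at 74.6 ± 8.07 CPM in fasted cKO and 126 ± 10.1 in fed cKO, against 82.6 ± 7.2 in fasted WT and 89.9 ± 6.99 in fed WT (-0.63 ± 0.11).

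Ribosome assembly genes, in contrast to ribosomal proteins, had 18 of 66 tested (27.3%) above 0 and 2 below, with a median of 0.15, and 22 above and 6 below without fasted WT replicates 1 and 2. Ltv1, an assembly factor of the small subunit, averaged 65.9 ± 7.07 CPM in fasted cKO and 45.6 ± 1.61 in fed cKO, against 42.5 ± 6.9 in fasted WT and 68.5 ± 2.25 in fed WT (1.22 ± 0.13, adjusted p = 1.36e-07). Genotypes did not overlap in either state and lay in opposite order. Ubtf, which encodes the RNA polymerase I factor UBF that PHF6 is reported to bind, averaged 29.9 ± 4.37 CPM in fasted cKO and 26.8 ± 3.12 in fed cKO, against 23.8 ± 2.39 in fasted WT and 43.3 ± 2.49 in fed WT (1.02 ± 0.15). Ftsj3, an rRNA methyltransferase, had 0.82 ± 0.11 and Bysl, a small-subunit factor, 0.95 ± 0.17. Mitochondrial ribosomal proteins had 16 of 78 tested (20.5%) above 0 and 3 below, or 27 and 5 without fasted WT replicates 1 and 2, among them Mrps6 (1.14 ± 0.17, 19.9% of exon bases shared with Gm49711). Eif2s1, the alpha subunit of eIF2, had 1.01 ± 0.15, within translation factors that had 9 of 67 above 0 and 5 below, or 15 and 13 without those 2 replicates and 8 and 8 with upper-quartile scaling.

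**Figure D4:**
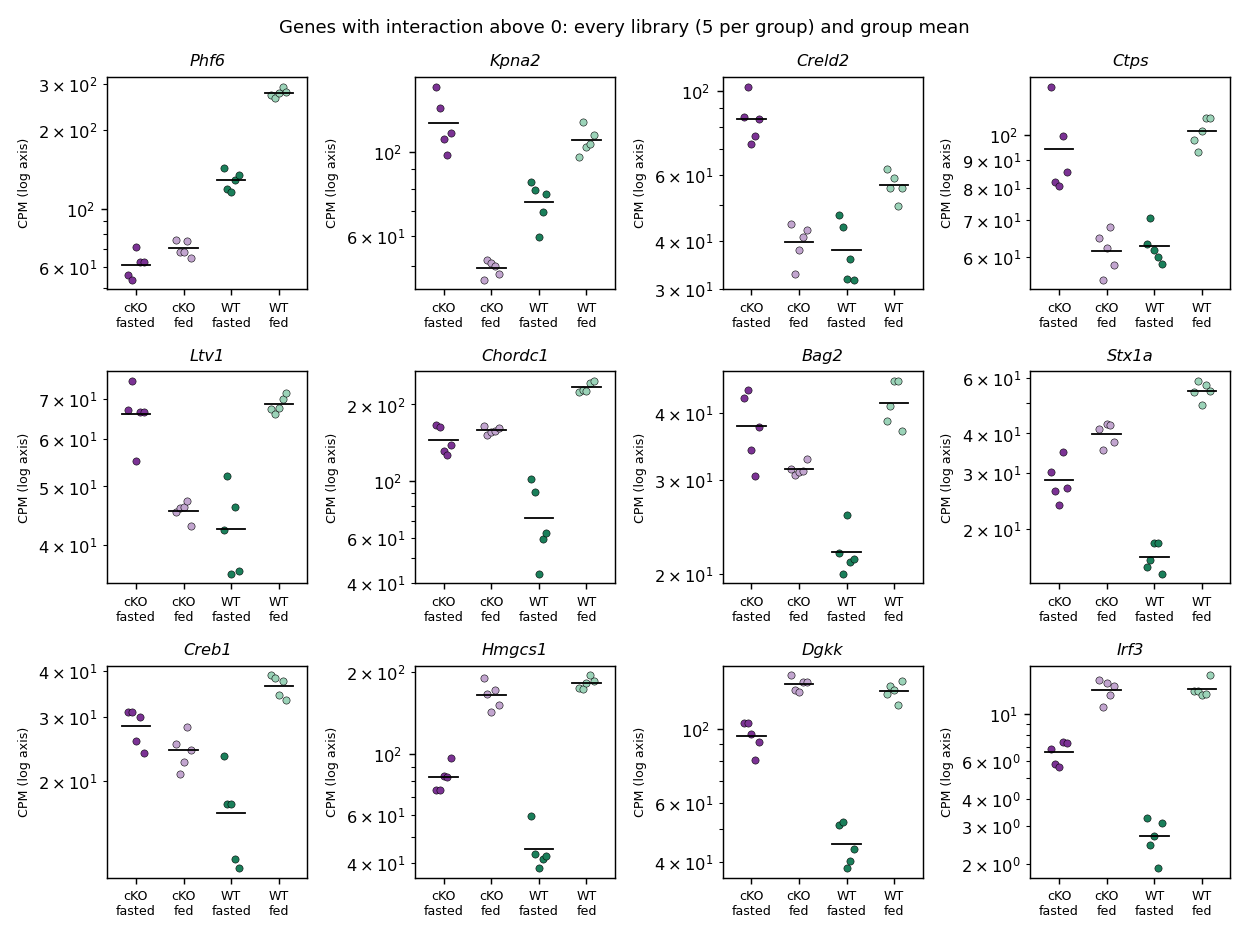
CPM (log axis) of 12 genes with an interaction above 0 in every library, with the mean of 5 libraries per group as a bar. Kpna2, Creld2, Ctps and Ltv1 are higher in fasted cKO than in fasted WT and lower in fed cKO than in fed WT, while Hmgcs1, Dgkk and Irf3 overlap between genotypes when fed.

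Chromatin genes known as partners of PHF6 were also counted. Of 15 tested NuRD genes, 5 (33.3%) lay above 0 and none below, or 4 and 1 without fasted WT replicates 1 and 2 and 4 and 2 with fasted replicates 3 to 5 only. The deacetylase gene Hdac2 averaged 182 ± 8.24 CPM in fasted cKO and 202 ± 5.56 in fed cKO, against 135 ± 26.9 in fasted WT and 249 ± 14.2 in fed WT (0.73 ± 0.12). Hdac1 had 0.61 ± 0.12 and the remodeller Chd4 0.58 ± 0.12. The list of PAF1 complex and PHF6 partners had 3 of 13 above 0, which were Phf6 itself, Ctr9 and Ubtf, and 2 below, or 4 and 2 without fasted WT replicates 1 and 2. The wider list of chromatin enzymes had 12 of 117 above and 11 below, close to the 8.87% and 8.44% over all genes, or 21 and 15 without fasted WT replicates 1 and 2. Creb1, the transcription factor that binds TGACG, averaged 28.3 ± 3.22 CPM in fasted cKO and 24.3 ± 2.72 in fed cKO, against 16.4 ± 4.76 in fasted WT and 36.5 ± 2.51 in fed WT (1.38 ± 0.19, adjusted p = 1.17e-05). Banp, a transcription factor of CpG island promoters, had 2.20 ± 0.26, and Mettl16, an RNA methyltransferase, 0.94 ± 0.11.

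Of 40 tested sterol and lipid synthesis genes, 24 fell and 6 rose with fasting in each genotype. The interaction lay above 0 for 8 (20%) and below for 1, or 13 and 2 without fasted WT replicates 1 and 2. Its median was 0.22, although the median fasting change of the list was lower in cKO (-0.66) than in WT (-0.46). Hmgcs1 (chr13:119690379-119708260, plus strand), which makes the precursor of mevalonate, had 74.1, 73.9, 83.3, 82.9 and 97.1 CPM in fasted cKO and 189, 166, 142, 171 and 151 CPM in fed cKO, against 59.6, 43.3, 38.4, 41.6 and 42.5 CPM in fasted WT and 175, 172, 181, 194 and 184 CPM in fed WT. Fed levels overlapped, and fasting lowered it 1.99-fold in cKO and 4.02-fold in WT, an interaction of 1.02 ± 0.13 (adjusted p = 5.61e-06). Of its exon bases, 12.1% lie opposite Gm48342. Sqle, squalene epoxidase, had 0.86 ± 0.15 and Fdft1, squalene synthase, 0.48 ± 0.09, the second with 18.3% of exon bases opposite Ctsb. Me1, the cytosolic malic enzyme that supplies NADPH, had 0.65 ± 0.10. Slc25a20, the mitochondrial carnitine carrier, had 1.04 ± 0.16. Its list of fatty acid oxidation genes had 8 of 42 (19%) above 0 and 2 (4.76%) below, against 8.87% and 8.44% over all tested genes. Without those replicates the counts were 8 and 4.

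Other genes above 0 had varied roles. Ctps, CTP synthase, averaged 94.1 ± 17.5 CPM in fasted cKO and 61.5 ± 5.35 in fed cKO, against 62.8 ± 4.73 in fasted WT and 102 ± 6.11 in fed WT (1.31 ± 0.13, adjusted p = 8.33e-08). Stx1a, a SNARE protein of vesicle fusion, had 30.3, 26.4, 23.8, 35.1 and 27 CPM in fasted cKO and 41.4, 35.6, 42.8, 42.6 and 37.5 CPM in fed cKO, against 15.2, 16, 18.1, 18 and 14.5 CPM in fasted WT and 54, 58.5, 49.1, 56.7 and 54.3 CPM in fed WT. Fasting lowered Stx1a in both genotypes, more in WT, an interaction of 1.25 ± 0.14 (adjusted p = 6.40e-07). Dgkk, a diacylglycerol kinase, was 2.11-fold higher in cKO than in WT when fasted and overlapped between genotypes when fed, where it did not pass the test (1.01 ± 0.12). Rgs19, a GTPase activator for inhibitory G proteins, had 1.22 ± 0.14, and Trappc13, a vesicle tethering subunit, 0.90 ± 0.11. Tnfrsf11b, which encodes osteoprotegerin, had 1.63, 0.759, 1.97, 1.93 and 1.67 CPM in fasted cKO and 4.01, 7.73, 10.3, 6.14 and 5.06 CPM in fed cKO, against 0.117, 0, 0.434, 0.451 and 0.11 CPM in fasted WT and 12.8, 14.8, 17.1, 17.2 and 17.4 CPM in fed WT. In the fasted WT libraries 3 counts equal 0.3 to 0.353 CPM, so its interaction of 3.99 ± 0.53 (adjusted p = 5.87e-06) rests on few reads there. Interferon-related genes had 5 of 26 (19.2%) above 0 and 1 (3.85%) below, against 8.87% and 8.44% over all tested genes. Without fasted WT replicates 1 and 2 the counts were 7 and 2. Among the 5 was Irf3, a transcription factor of antiviral defence, at 6.61 ± 0.807 CPM in fasted cKO and 12.9 ± 1.48 in fed cKO, against 2.69 ± 0.538 in fasted WT and 13.1 ± 1.17 in fed WT (1.31 ± 0.22).

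**Figure D5:**
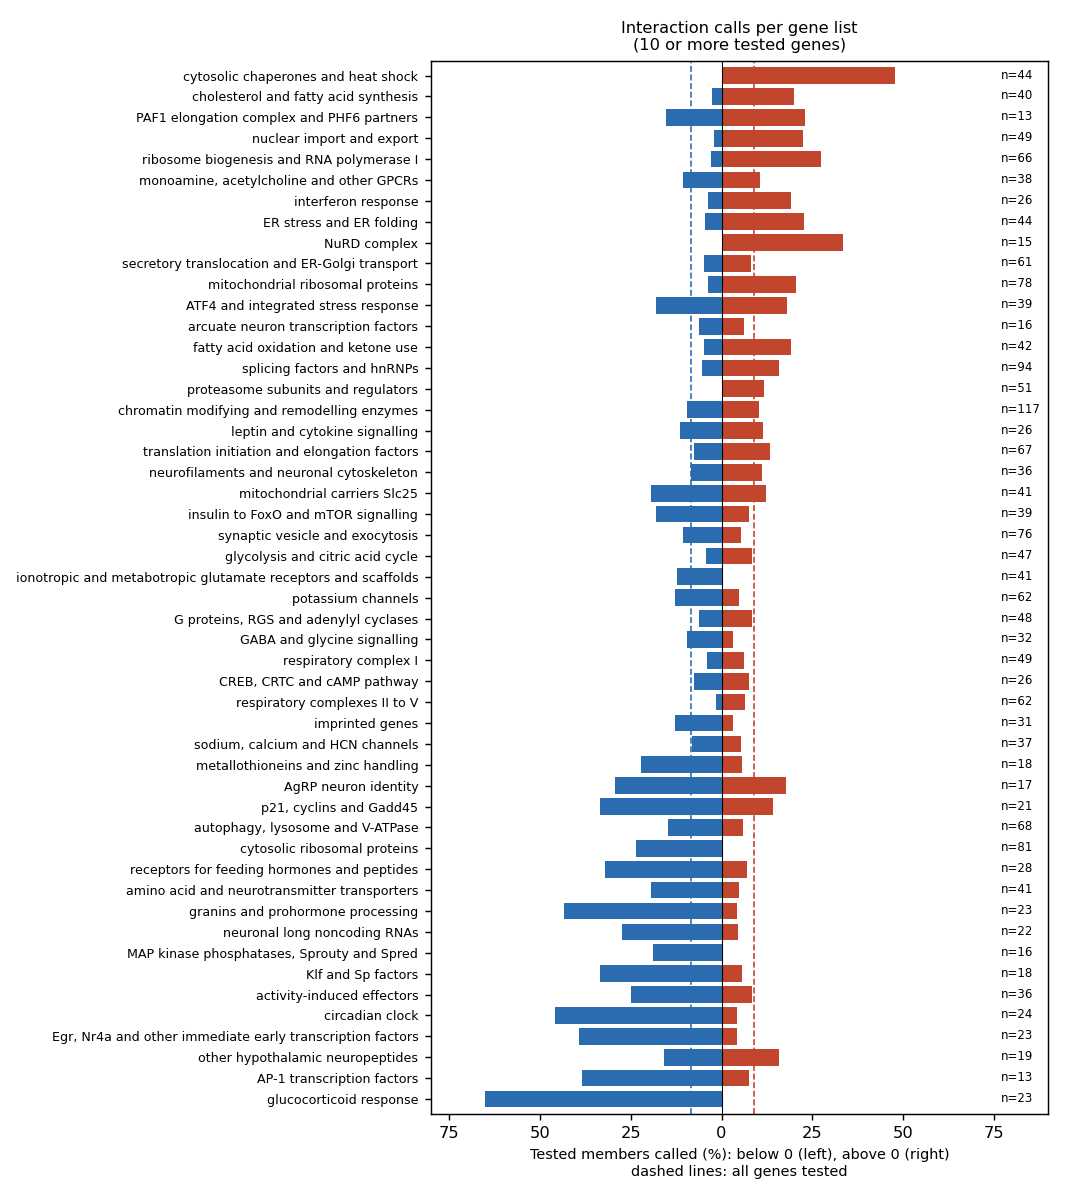
Percent of tested members of each gene list with an interaction above 0 (right) or below 0 (left), ordered by the median interaction from high (top) to low (bottom), with dashed lines at the 8.87% and 8.44% over all 13237 genes. Cytosolic chaperones reach 47.7% above 0 and glucocorticoid-responsive genes 65.2% below 0.

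Neuronal signalling lists were also counted. Over all tested genes, 8.87% lay above 0 and 8.44% below. Without fasted WT replicates 1 and 2 the calls over all genes rose from 1174 to 1872 above and from 1117 to 1854 below. Potassium channels had 3 of 62 (4.84%) above 0 and 8 (12.9%) below, or 4 and 7 without fasted WT replicates 1 and 2. Glutamate receptors and scaffolds had 0 of 41 above and 5 below, or 3 and 6. GABA and glycine signalling had 1 of 32 above and 3 below, or 1 and 6. Synaptic vesicle genes had 4 of 76 above and 8 below, or 5 and 19. The CREB, CRTC and cAMP list had 2 of 26 above, Creb1 and Prkar2b, and 2 below, or 2 and 5. Leptin and cytokine signalling had 3 of 26 above and 3 below in both fits. The lists and their members were written with earlier results of these data known, and no list was tested as a set.

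Promoter motifs were counted across the tested genes. Of the 13237 tested genes, 10082 had a promoter in the RefSeq table, as did 903 of the genes above 0 and 858 of those below. The short site TGACG occurred in 35% of promoters above 0, 35.3% below 0 and 32% of all, and the full CRE, TGACGTCA, in 3.88%, 4.9% and 3.32% in the same order. The AP-1 site TGANTCA, with N for any base, occurred in 3.21% above 0, 5.94% below 0 and 4.56% of all, and TATAAA in 5.54%, 8.51% and 6.72%. The E-box CACGTG was in 11% above 0, 9.67% below 0 and 10.2% of all, the Ets site CCGGAAG in 19.8%, 17% and 17.8%, and the Egr site GCGTGGGCG in 0.775%, 0.699% and 1.21%. Both strands were searched, every TGACGTCA also counts as TGACG, and no test was made of these shares.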

How the data were processed

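RNA from sorted AgRP neurons was measured in 20 libraries made with SMART-seq v4 and Nextera XT, neither of which marks strand, after 15 cycles of cDNA amplification per the labels' protocols. The authors deposited whole-number read counts per gene. Reads were trimmed with Trimmomatic 0.36, aligned with HISAT2 2.1.0 to GRCm38 and counted with featureCounts of Subread 1.6.2, and DESeq2 1.20.0 is also named, per the submitters' processing notes. No source used here states the counting annotation or the strand setting. A table of the same counts divided by size factors was not used.

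Columns were matched to samples by title. Genes kept by filterByExpr of edgeR 4.0.16 (minimum count 10, minimum total 15) were scaled by TMM and tested with the 2-sided quasi-likelihood test in 1 model of 4 group means over 20 libraries, with Benjamini-Hochberg adjustment over 13237 genes and a threshold of 0.05. Those genes held at least 99.9% of each library's counts. Log2 fold changes are given with standard errors, and CPM is not corrected for length. On simulated counts for the interaction (13118 genes, 200 changed) the test recovered 38% of 1.5-fold and 77% of 2-fold changes, and 7.26% of its calls were unchanged genes. The changed genes were not drawn from the lowest levels, and the last share leaves out genes whose simulated fasted cKO mean was capped. The adjusted p depends on the share of changed genes, and 17.3% of tested genes were called in the data. These rates therefore do not carry over to the data. In the table, 27 gene names had turned into dates, 22 of them tested but not named.

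Named genes were Phf6, Agrp and Npy; among called genes with a mean log2 CPM of at least 2, the 15 smallest p-values and 8 largest values in each direction; and up to 4 called members with the smallest p per list. Not all of these are described, and some results are not reported here. Cell markers and members that make up a count of 5 or fewer were named after their values were seen. The members and the gene lists were chosen with earlier results of these data known. Coordinates and exon overlaps are from GENCODE M21 on GRCm38, and overlaps above 10% of exon bases are stated. Alternatives covered scaling, filters, tests (DESeq2 1.42.0, limma-voom 3.58.1), depth, GC content and length, a replicate block, the fasted libraries that stood apart, and leaving out each library in turn.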

Additional observations from a re-analysis of the deposited data

Results flagged for a closer look

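The fasting response differed between the genotypes for 1174 genes with an interaction above 0 and 1117 below 0, by the test of the interaction itself. Single libraries lay far from the other 4 of their group in 24 of 408 sets of gene and group (5.88%), by a gap of more than 0.71 of the group's range, and chance alone gives about 1 in 20. All values are in CPM.

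In fasted cKO, Junb (51.18) and Mafk (9.42) were high in replicate 4, Nts (136.3) was high and Tnfrsf11b (0.7589) low in replicate 2, and Hdac2 (196) was high in replicate 1. In fed cKO, Agrp was low in replicate 1 (4369), Egr1 high in replicate 2 (48.61), Klf7 low in replicate 3 (17.66), and Jun (60.4) and Neat1 (2.912) high in replicate 5. In fasted WT, replicate 1 was high for Nr4a1 (23.14), Crebrf (95.15), Ppp4r4 (48.86) and Hmgcs1 (59.61), and replicate 2 low for Hdac1 (25.19). In fed WT, replicate 2 was low for Mt2 (2.369) and high for Cd68 (1.866) and Kcnj3 (24.84). Fed WT replicate 3 was high for Klf13 (11.35) and low for Nup35 (23.34) and Cct4 (352.4). Fed WT replicate 4 was high for Penk (39.18), and replicate 5 was high for Slc6a6 (32.21) and Irf3 (15.1). Exon bases shared with another gene were 31.1% for Kcnj3.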

How the results depend on the processing

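Most named genes were chosen for small p-values or large values in these same data, which favours passing again, so their count does not describe all calls. Of 102 named genes, 96 passed the test with the same direction under all 35 alternatives with a test. The exceptions were Klf6, Ghsr and Traf3ip3 with fasted replicates 1 and 2 alone, Svs2 with limma-voom, Klf13 under several and Penk, whose adjusted p was 0.159 without fed WT replicate 4, 0.0857 in the robust fit and 0.094 with limma-voom. For Spry4 the difference of fasting differences in CPM, which has no test, was 3.72, the opposite sign of its log2 value. Interaction counts were 1810 above 0 and 1793 below with fasted replicates 3 to 5 only, 1872 and 1854 without fasted WT replicates 1 and 2, and 990 and 1366 with upper-quartile scaling. Genes lower in fasted cKO numbered 668 with fasted replicates 1 and 2 only and 2039 without fasted WT replicates 1 and 2. Genes higher in fed cKO numbered 1172 with a term for the fasted sets, 1401 with fasted replicates 1 and 2 only and 1370 with replicates 3 to 5 only, and genes lower in fed cKO 836, 1183 and 1150 in the same order, and 865 without fasted WT replicates 1 and 2. The fed libraries are the same in these fits. The fit with a term keeps all 20 libraries and models the fasted sets, and the others estimate the spread with fewer fasted libraries. Leaving out 1 library in turn gave 1003 to 1428 genes above 0 and 934 to 1272 below, 1169 to 1738 higher and 861 to 1455 lower in fasted cKO, 567 to 864 higher and 332 to 621 lower in fed cKO, 3244 to 3527 rising and 3274 to 3671 falling with fasting in cKO, and 3776 to 3966 rising and 3926 to 4224 falling in WT. The replicate block gave 1197 genes above 0 and 1150 below. Correlations of libraries with the same number were -0.0536 to 0.131 over 30 pairs, 2 of them over 0.1, and 6 of 30 correlated best with their own number, so the numbers were not taken to pair the libraries. Between fasted cKO and fasted WT all 5 were above 0 (0.0221 to 0.131), where the shared split of replicates 1 and 2 from 3 to 5 also falls, and a term for those sets gave 1608 genes above 0 and 1598 below. Of the 2291 called genes, 1436 (62.7%) were also called in the same direction with fasted replicates 1 and 2 only. Of all 2291, 6 had the opposite sign in that fit, whether called there or not. With 1 library left out in turn, 82% to 94.1% of the 2291 were called again in the same direction. Depth limits low genes: 3 counts equal 0.221 to 0.353 CPM, and intervals of counting error do not cover cDNA amplification.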

Other observations

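Some further lists were counted and not described above. Over all tested genes, 8.87% lay above 0 and 8.44% below. Those calls rose from 1174 to 1872 above and from 1117 to 1854 below without fasted WT replicates 1 and 2. Splicing factors and hnRNP genes had 15 of 94 tested members (16%) above 0 and 5 below, or 20 and 13 without fasted WT replicates 1 and 2, and 9 and 7 with upper-quartile scaling. Proteasome genes had 6 of 51 above 0 and none below, or 13 and 3, and their median interaction of 0.0365 was -0.00313 with upper-quartile scaling. Genes of the ATF4 and integrated stress response had 7 of 39 above 0 and 7 below, or 6 and 8. They had 11 above and 2 below with fasted replicates 1 and 2 only, and 8 and 8 with fasted replicates 3 to 5 only. Autophagy, lysosome and V-ATPase genes had 4 of 68 above 0 and 10 below, or 5 and 28, with a median of -0.167. These counts are descriptions, and no list was tested as a set.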
